A study of Schmidtea polychroa with 24 samples.

Results

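The last interval of a Schmidtea polychroa embryo time course was examined, from 120 h to 168 h after the cocoon was laid, with 6 of the 24 libraries of the series: 3 at 120 h and 3 at 168 h. The members were taken by their labelled time, and counts of the assembled isoforms were summed per assembler gene. The animals came from an untreated sexual laboratory population of this freshwater planarian, and both groups share that origin. Each library pools 4 whole cocoons kept at 20 °C, so embryos and the yolk cells around them were extracted together, and cocoons within a library cannot be told apart. The libraries are described as biological replicates. The other times, at 4, 24, 32, 48, 72 and 96 h, entered the model to share its estimate of spread, and are used below for reference.

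Planarian embryos of this genus develop with external yolk: a capsule holds a few small embryos among a great number of yolk cells that carry the food store. The embryo first builds a temporary pharynx and swallows yolk cells through it, and undifferentiated cells inside it later form the definitive organs. RNA of a whole cocoon is therefore a mixture of yolk and embryo. In such bulk samples fewer cells of a type and less RNA per cell cannot be told apart. The IDs are those of a transcriptome assembly and carry no gene names, so the labelled material could not be checked against tissue markers, and genes are described in groups by their course at other times.

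The 168 h libraries were alike and the 120 h libraries were not. Across the 15587 tested genes the Spearman correlations between 168 h libraries were 0.970, 0.975 and 0.981. Between 120 h libraries they were 0.896 for replicates 2 and 3, 0.791 for replicates 1 and 2, and 0.692 for replicates 1 and 3. The median SD of a gene's log2 CPM (counts scaled to a common library total) was 0.979 over the 120 h libraries and 0.225 over the 168 h libraries, and it was larger at 120 h for 85.8% of genes. 120 h replicate 1 was also the shallowest, with 1758237 counts against 4707170 and 4901169 in replicates 2 and 3 and 6020914 to 9567933 at 168 h. Thinned to that depth, 10989 genes reached 1 CPM in 120 h replicate 1, 12562 in replicate 2 and 14595 in replicate 3, against 14772 to 15365 at 168 h.

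The 120 h replicates stood next to different times. Replicate 1 correlated best with the mean of the 24 h libraries (Spearman 0.872 across genes) and at 0.814 with the 96 h mean. Replicates 2 and 3 correlated best with the 96 h mean, at 0.935 and 0.890, and with the 24 h mean at 0.754 and 0.644. With the mean of the 168 h libraries the values were 0.637, 0.864 and 0.799 for replicates 1, 2 and 3. These correlations are descriptions across genes, which are not independent. Depth moved with the split at 120 h, and its part in the results was not tested.

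Genes with a course defined only by the libraries of 4 h to 96 h showed the same split. Genes high at 96 h (at least 5 CPM there and at least 4 times the 72 h mean, 2141 genes) held 2.56% of the counts in 120 h replicate 1, 29.2% in replicate 2 and 30.3% in replicate 3. They held 22.1%, 26.4% and 23.8% in the 168 h libraries, and 1.71% to 3.97% in all libraries of 4 h to 72 h. Replicate 1 therefore lay inside the range of the libraries up to 72 h for these genes, and the other libraries of 120 h lay above the range of 168 h. Early genes (at least 5 CPM at 4 h and at least 4 times the 96 h mean, 1446 genes) held 9.85%, 6.11% and 4.55% in 120 h replicates 1, 2 and 3. At 168 h they held 6.45%, 4.54% and 4.8%, and at 72 h between 9.05% and 10.9%.

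**Figure D1:**
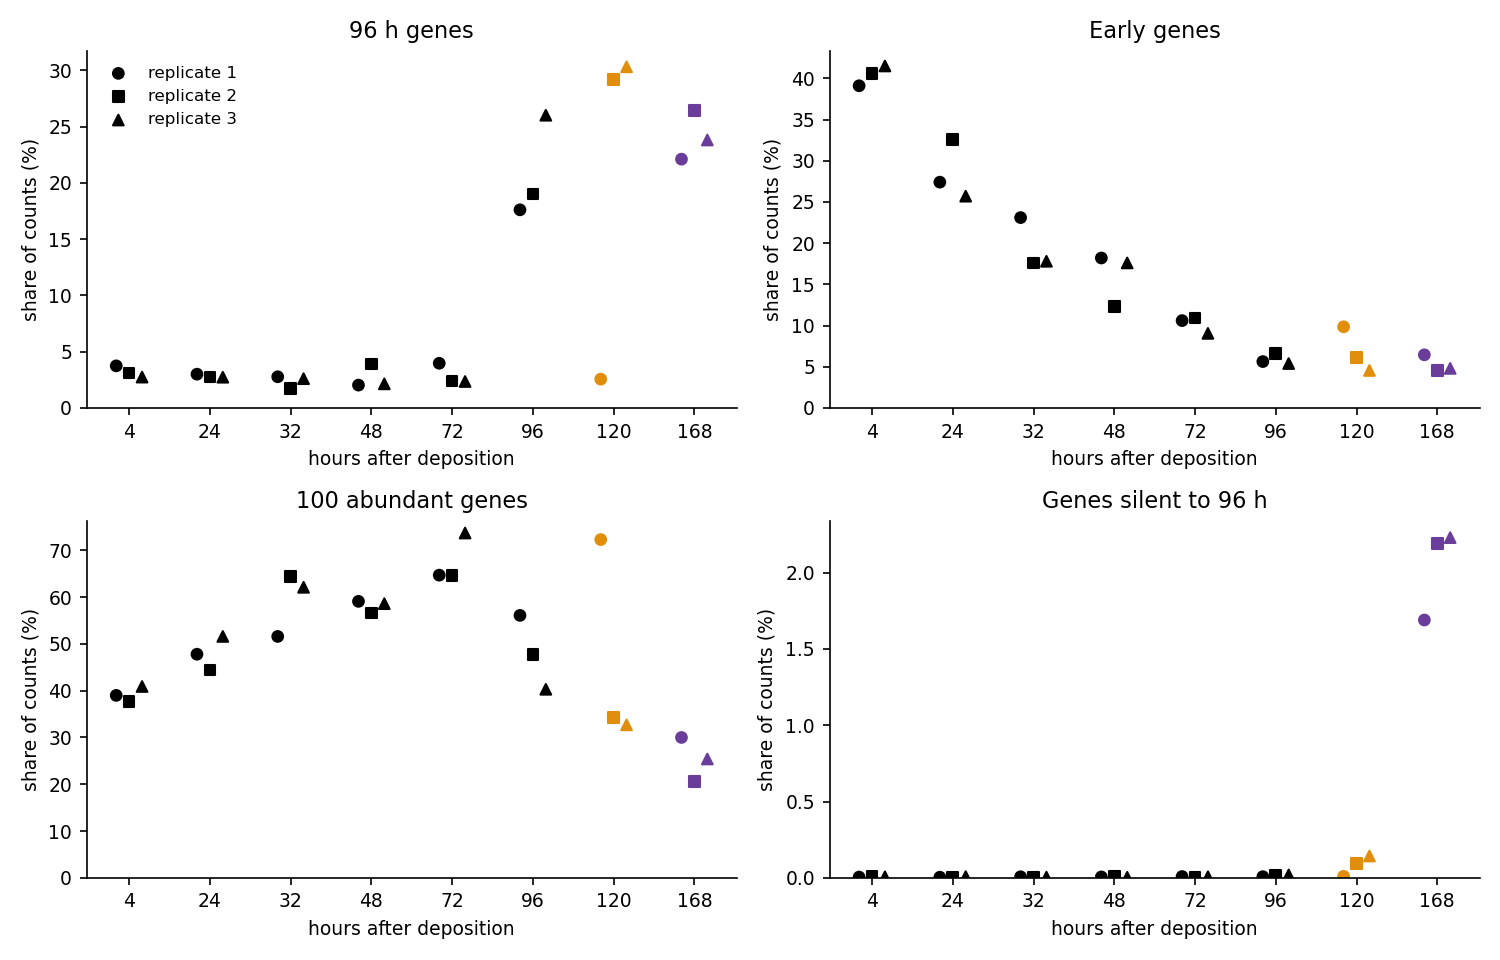
Share of each library's counts (%, linear axes from 0) held by 4 gene lists, by hours after deposition. Each point is a library, orange for 120 h, purple for 168 h and black for earlier times, and the shape gives the replicate. 120 h replicate 1 has 2.56% in the genes high at 96 h, while replicates 2 and 3 have 29.2% and 30.3%. Genes silent to 96 h hold at most 0.143% at 120 h and at least 1.69% at 168 h.

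Over the interval 818 genes rose, 5.25% of the 15587 tested, and 972 fell, 6.24%. Calls are those of edgeR's quasi-likelihood test, with the threshold of 0.05 set on p-values adjusted by Benjamini and Hochberg's method. The rises were large and started from low levels: their median log2 fold change was 5.08, and the median gene went from 0.578 to 25.6 CPM after TMM scaling. The falls were smaller and concerned more abundant genes, with a median log2 fold change of -1.90 and medians of 65.3 and 20.6 scaled CPM. A change of 16-fold or more was fitted for 560 of the rises and 48 of the falls. Over all tested genes the median change was -0.17 on the log2 scale. On the authors' own normalised values, where that median was 0.24, limma called 2239 rises and 590 falls. Fitted to the 6 libraries of 120 h and 168 h only, edgeR called 1381 rises and 44 falls. Without 168 h replicate 2 the calls were 246 rises and 12 falls, and without 168 h replicate 3 they were 213 and 10, so most falls were not called once either library was left out. Of the rises, 535 passed the filter on low counts only through the 168 h libraries, while 283 would have passed it without them. Among all 15587 tested genes, 2026 passed only through 168 h. Such genes were picked for low counts at the other times, so their rises follow in part from the filter.

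Nearly every rise was seen against each 120 h library, and most falls were not. A change is said here to be seen against a 120 h library when all 3 168 h libraries lie on the same side of it and their mean differs from it by at least 2-fold, in log2 CPM after scaling. Of the 818 rises, 760 (92.9%) were seen against all 3 libraries of 120 h. Of the 972 falls, 260 (26.7%) were. Among all tested genes 13.9% were higher at 168 h by this rule and 2.33% were lower. Of the other falls, 321 were seen against replicates 1 and 2 only, 279 against replicate 1 only and 58 against replicates 1 and 3. Falls seen against replicate 2 only numbered 5, and those against replicate 3 only 11. The 168 h libraries lay entirely above the 120 h libraries for each of the 818 rises, where 24% of tested genes did so. They lay entirely below them for 656 of the falls, against 10.3% of tested genes. These counts use the libraries that made the calls and describe them; they add no support to the test. Rises and falls are also not like sets. Of the rises, 535 passed the filter on low counts only through 168 h, and of the falls 13 only through 120 h. Rises that entered this way lacked the counts elsewhere to pass, so the contrast of 92.9% and 26.7% is in part fixed by the filter.

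Measured against single libraries, the falls were deepest against replicate 1. The median difference of the 168 h mean from a 120 h library, over the 972 falls, was -2.86 on the log2 scale for replicate 1, -1.18 for replicate 2 and -0.88 for replicate 3. For the 818 rises it was 4.34, 3.68 and 3.55. The order of the replicates was the same for rises and falls, but relative to its size the spread was far wider among falls.

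**Figure D2:**
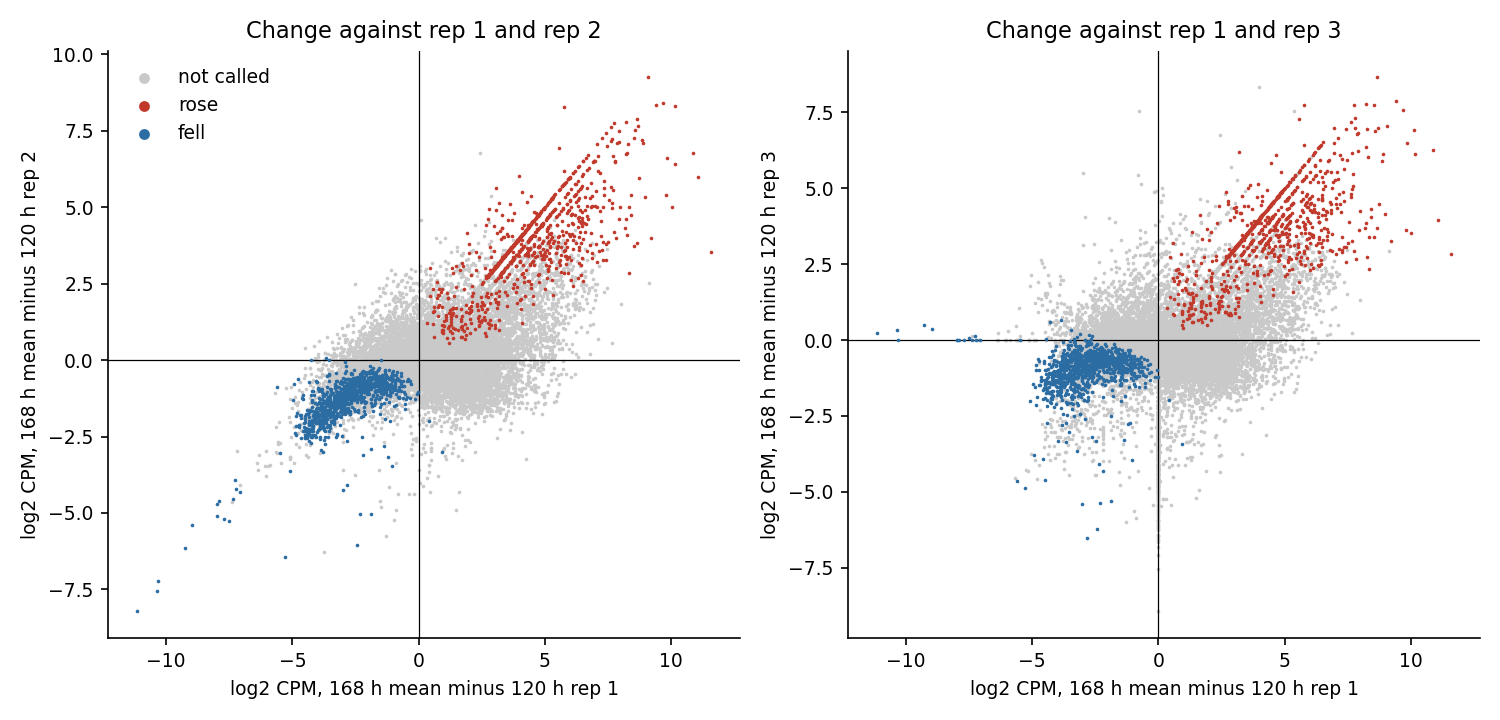
Each point is a tested gene; the axes give the log2 CPM (TMM-scaled) of the 168 h mean minus that of 120 h replicate 1 (horizontal) and of replicate 2 or 3 (vertical). The 818 called rises (red) lie in the upper right of both panels, while the 972 called falls (blue) lie farther from 0 against replicate 1 (median -2.86) than against replicate 3 (median -0.88).

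The test was repeated without each 120 h library on the same genes. Without replicate 1, 367 genes rose (2.35%) and 319 fell (2.05%). Of these, 320 rises and 175 falls were also called with all libraries, 39.1% and 18% of the full lists. Without replicate 2, 510 rose (3.27%) and 601 fell (3.86%), with 444 and 593 shared. Without replicate 3, 677 rose (4.34%) and 992 fell (6.36%), with 551 and 809 shared. Among these 3 fits the falls lost most calls when replicate 1 was left out. There 469 falls were lost and kept in both other fits, while 12 were lost only without replicate 2 and 4 only without replicate 3. Among rises, 127 were lost only without replicate 1, 8 only without replicate 2 and 0 only without replicate 3. Called in all 3 of these fits as well as in the full one were 299 rises (36.6%) and 108 falls (11.1%). When each 168 h library was left out in turn instead, 206 rises and 6 falls of the full list were called every time.

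With a single 120 h library as the reference, the lone library was assumed to vary like those of the other times. Replicate 1 alone gave 1814 rises and 1812 falls, 11.6% of tested genes each. Replicate 2 alone gave 58 rises (0.372%) and 11 falls (0.0706%), and replicate 3 alone gave 56 rises (0.359%) and 29 falls (0.186%). All 3 single references called 43 of the rises and 3 of the falls of the full list. Of the falls on the full list, 880 were called against replicate 1 and against neither other library. Of the rises, 345 were.

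**Figure D3:**
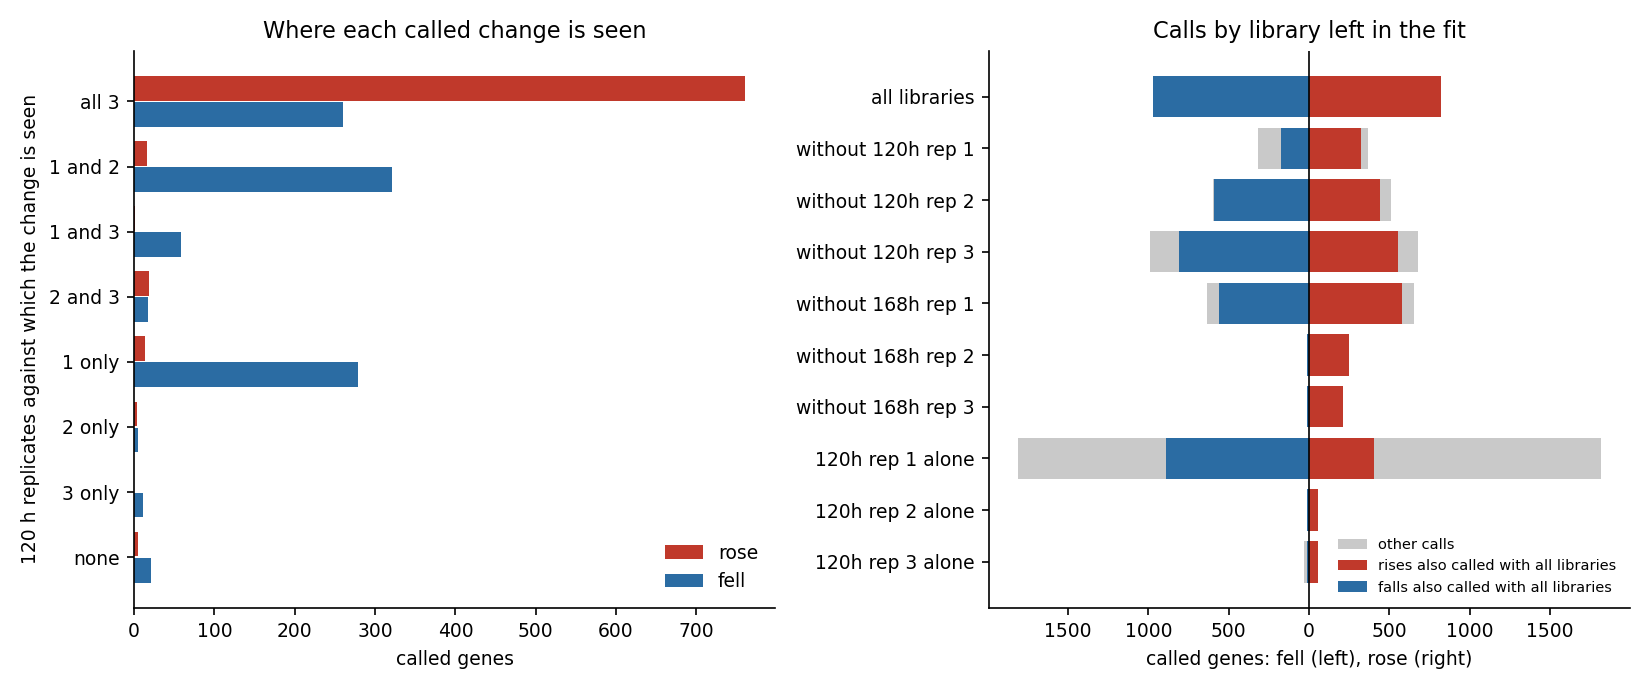
Left, number of called genes (red rose, blue fell) by the 120 h replicates against which the change is seen, with 760 rises and 260 falls seen against all 3 and 279 falls seen against replicate 1 only. Right, number of genes called to fall (leftward) and to rise (rightward) in each fit, coloured where the gene is also called with all libraries and grey otherwise; the fit with 120 h replicate 1 alone gives 1814 rises and 1812 falls.

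TRINITY_DN235208_c0_g1 had the largest rise among the 74 abundant genes whose rise was seen against all 3 libraries and called in each fit without a 120 h library. It was at 3.32, 3.4 and 11.9 scaled CPM in 120 h replicates 1, 2 and 3, from 4, 20 and 67 counts, and at 139, 260 and 384 scaled CPM at 168 h. The groups did not overlap, and every 168 h library was more than 10 times above the highest 120 h library. The fitted log2 rise was 5.32, SE 0.83 (edgeR, adjusted p = 0.00103). Without 120 h replicates 1, 2 and 3 in turn it was 5.09, 5.36 and 6.49. At earlier times its highest mean was 3.12 ± 1.95 scaled CPM at 72 h (SD, n = 3), and the assembly gives it 1 isoform. The 20 largest rises of the same kind ran from 3.35 to 5.32 on the log2 scale, with adjusted p from 3.3e-07 to 0.0117 by edgeR. All 20 had their highest mean of the 8 times at 168 h.

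TRINITY_DN241666_c3_g3 had the largest fall among the 69 abundant genes that met the same conditions downward. It was at 78.9, 185 and 417 scaled CPM in 120 h replicates 1, 2 and 3, and at 13.1, 12.2 and 5.07 at 168 h. The groups did not overlap, although replicate 1 was here the lowest library of 120 h and not the highest. The fitted log2 change was -4.49, SE 0.98 (edgeR, adjusted p = 0.01), and the adjusted p lay between 0.0107 and 0.028 without each 120 h library. The call was lost without 168 h replicate 2 (edgeR, adjusted p = 0.0689) and without 168 h replicate 3 (adjusted p = 0.0922). Its mean was highest at 96 h, with 1240 ± 515 scaled CPM (SD, n = 3), and 107 ± 25.8 at 4 h. The 20 largest falls of this kind ran from -4.49 to -2.50. Replicate 1 was the highest 120 h library in 18 of them.

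TRINITY_DN237001_c3_g1 had the largest fall among 525 abundant genes whose call depended on a 120 h library. It was at 141, 24.5 and 13.5 scaled CPM in 120 h replicates 1, 2 and 3 and at 16.0, 1.28 and 3.27 at 168 h. The groups overlapped, since 168 h replicate 1 lay above 120 h replicate 3. The fitted log2 change was -3.08, SE 0.78 (edgeR, adjusted p = 0.0181), and -1.48 without 120 h replicate 1 (adjusted p = 0.152). It was also not called without 168 h replicate 2 or 3 (edgeR, adjusted p = 0.118 and 0.132). Earlier means were 57.5 ± 18.3 scaled CPM in the 72 h libraries and 36.8 ± 11.3 in those of 96 h (SD, n = 3 each). In all of the 20 largest falls of this kind replicate 1 was the highest library of 120 h.

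TRINITY_DN234570_c7_g1 had the largest rise among 46 abundant genes whose rise depended on a 120 h library. It was at 6.64, 1.53 and 2.30 scaled CPM in 120 h replicates 1, 2 and 3, from 8, 9 and 13 counts, and at 11.8, 10.5 and 11.8 at 168 h. The groups did not overlap, but replicate 1 lay within 2-fold of the 168 h mean. The fitted log2 rise was 1.81, SE 0.56 (edgeR, adjusted p = 0.0418). Without replicate 1 it was 2.55 (adjusted p = 0.014), and without replicates 2 and 3 the adjusted p was 0.0968 and 0.0863. Leaving out any 168 h library also ended the call (edgeR, adjusted p from 0.0536 to 0.107). Its mean was 12.8 ± 4.95 scaled CPM in the 72 h libraries and 2.11 ± 0.796 in those of 96 h (SD, n = 3 each), so a mean near that of 168 h had been measured before.

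**Figure D4:**
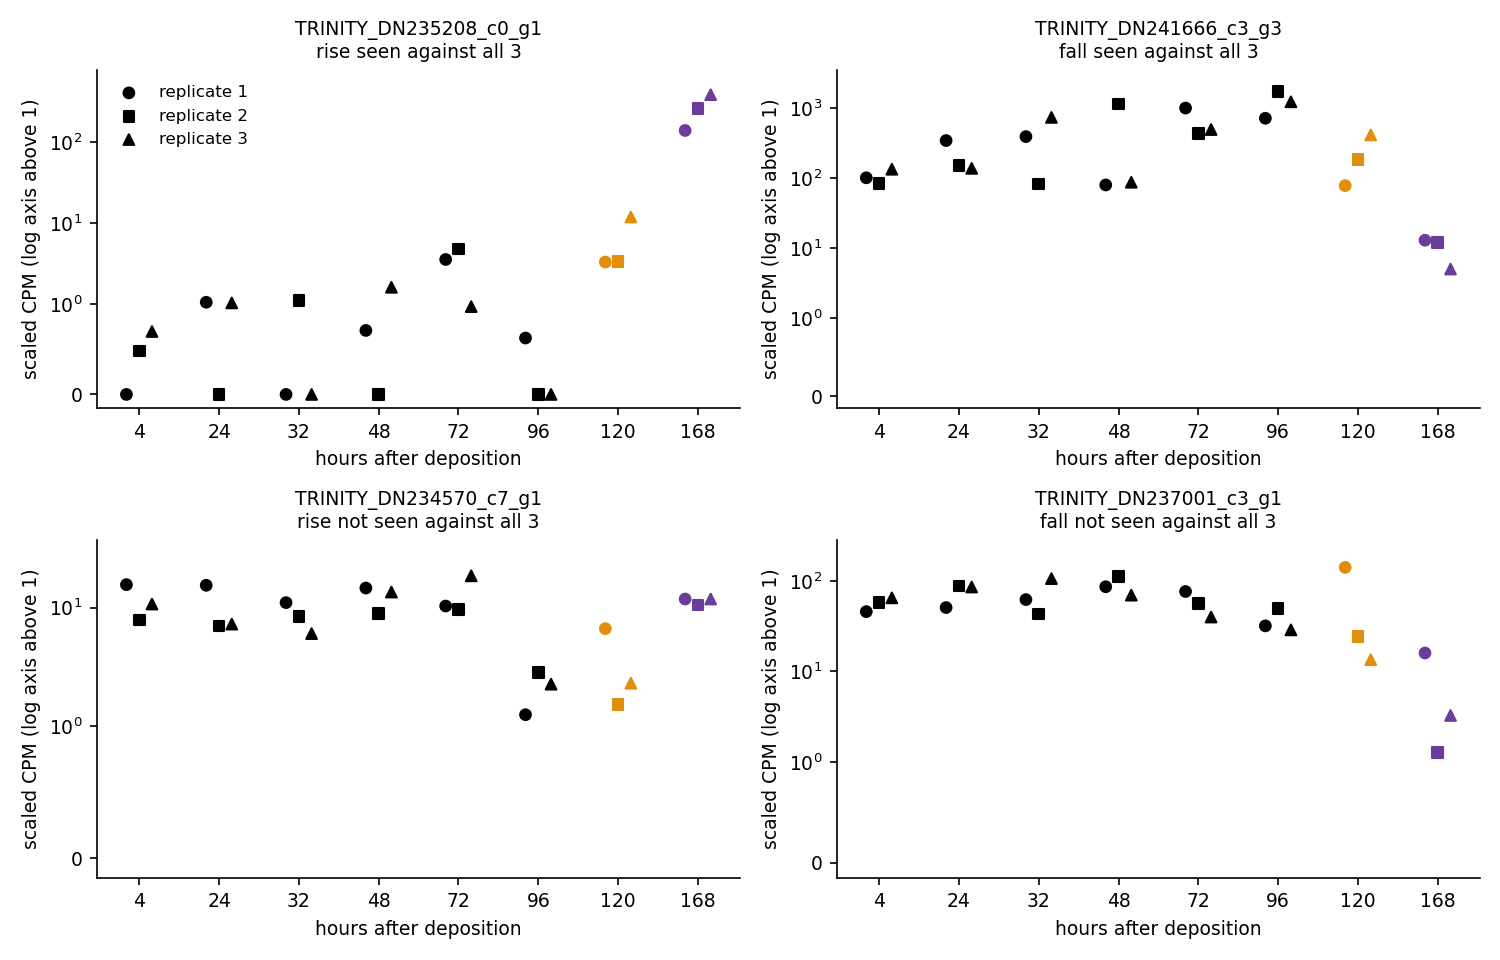
Scaled CPM of the 4 named genes in all 24 libraries by hours after deposition (vertical axis logarithmic above 1 and linear below; shapes give replicates, orange 120 h, purple 168 h). TRINITY_DN235208_c0_g1 reaches 139 to 384 at 168 h from at most 11.9 at 120 h, while in TRINITY_DN237001_c3_g1 the 120 h point at 141 is replicate 1.

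The rises seen against all 3 libraries of 120 h were mostly low before 168 h. Their median level was at or below 0.24 log2 CPM in every 120 h library and between 4.40 and 4.65 in the 168 h libraries. Of these 760 genes, 71.2% were under 1 CPM in all 4 h libraries, 58.2% in all 96 h libraries and 47.2% in all 120 h libraries. In 120 h replicates 1, 2 and 3, 23.7%, 43.9% and 48.3% of them had 1 CPM or more, against 23.9% to 33.7% in the libraries of 4 h and 96 h. They held 0.199%, 0.652% and 0.725% of the counts of 120 h replicates 1, 2 and 3, and 6.55%, 8.78% and 8.66% at 168 h. The highest mean scaled CPM of the 8 times was at 168 h for 779 of the 818 rises (95.2%) and for 24.8% of tested genes. The 168 h libraries made these calls, so the share at that time is a description. The filter fixed the low earlier levels in part, since 535 of the 818 rises passed it only through 168 h. The shares under 1 CPM are therefore descriptions too.

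Many of the falling genes were highest in the first hours. Of the 972 falls, 370 had their highest mean at 4 h and 162 at 24 h, which is 38.1% and 16.7%, where 14.4% and 5% of tested genes had theirs. The share at 4 h was 28.5% for the 260 falls seen against all 3 libraries of 120 h and 47% for the 279 seen against replicate 1 only. The 260 falls seen against all 3 libraries had median levels of 6.28, 4.93 and 4.81 log2 CPM in 120 h replicates 1, 2 and 3, and 3.88, 2.53 and 2.53 at 168 h. At 72 h these medians were 6.05 to 6.20, and at 96 h 4.90 to 5.62. The 279 falls seen against replicate 1 only were at 7.11, 5.92 and 5.75 log2 CPM at 120 h, and at 5.54, 4.93 and 5.01 at 168 h. These sets were chosen by where the 120 h libraries lie against 168 h, so the distance between replicates is no separate sign of a split. In both sets replicate 1 was nearest to the mean of a time up to 72 h, and replicates 2 and 3 were nearest to the 96 h mean. Over the 260 genes the median absolute log2 difference of replicate 1 was 0.351 from the 72 h mean and 1.318 from the 96 h mean. For replicate 2 these differences were 1.545 and 0.4. The 321 falls seen against replicates 1 and 2 only went otherwise for replicate 3. There replicate 1 was nearest to the 48 h mean (0.337) and replicate 2 to the 96 h mean (0.278). Replicate 3 was nearest to the 168 h mean, at 0.757, with 0.961 from the 96 h mean, which the choice of these genes fixed in part.

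A further 489 genes were higher at 168 h than in replicate 1 and lower than in replicates 2 and 3, each by at least 2-fold. With all libraries 0 of them were called by edgeR and 12 had an unadjusted p under 0.05, while 33 were called without replicate 1. The choice of these genes fixed that replicate 1 lay below the others. Their median level was 2.21, 5.88 and 5.93 log2 CPM in 120 h replicates 1, 2 and 3, and 4.58, 4.57 and 4.43 at 168 h. In the 96 h libraries it was 5.43, 5.73 and 5.84, so the libraries of 96 h and 120 h replicates 2 and 3 lay together above 168 h. The highest mean was at 96 h for 377 of them and at 120 h for 81. In all, 1198 genes were higher than one 120 h library and lower than another by this rule.

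**Figure D5:**
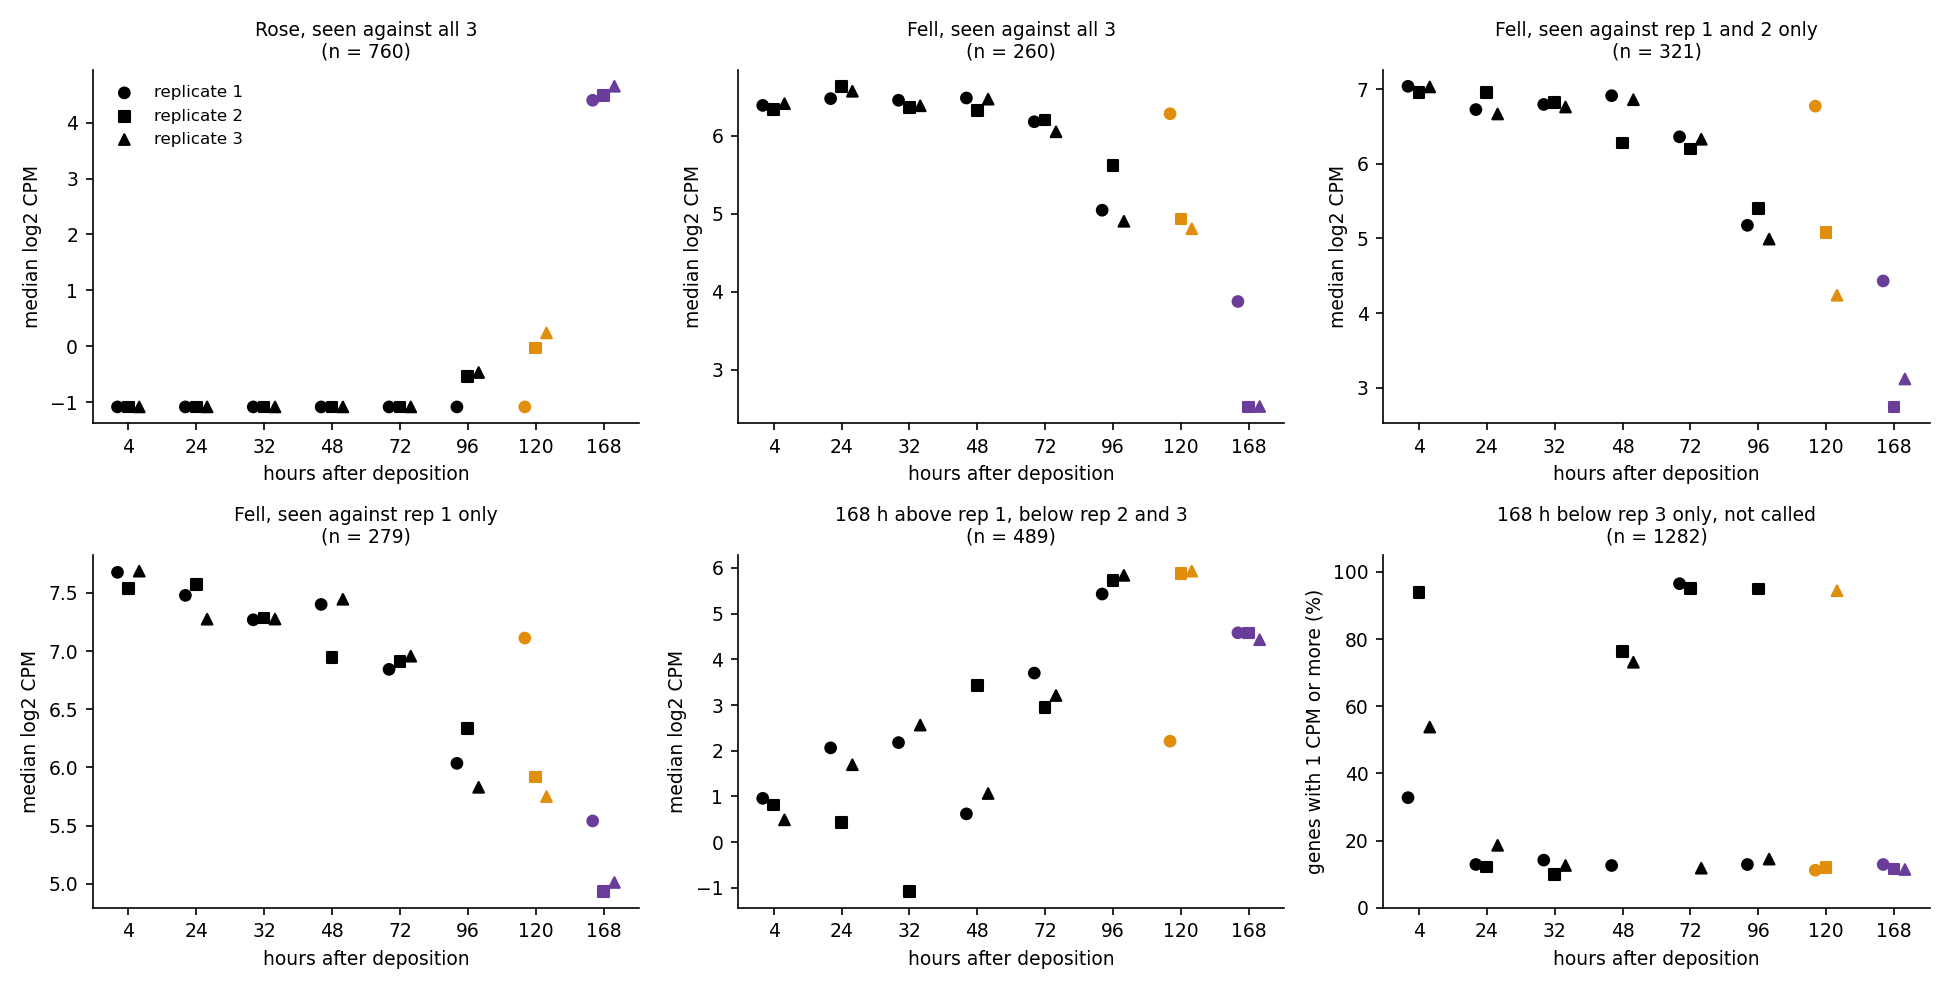
Course of 6 groups of genes by hours after deposition, each point a library (orange 120 h, purple 168 h, shapes for replicates). Vertical axes give the median log2 CPM of the group, which do not start at 0, and in the last panel the percentage of genes with 1 CPM or more. The groups were chosen by their levels at 120 h and 168 h, so the order of those points is fixed in part by the choice. 120 h replicate 1 lies nearest to libraries of up to 72 h in the groups that fell and in the 489 genes. In the last panel 94.4% of 1282 genes reach 1 CPM in 120 h replicate 3, and 11.2% and 12.0% in replicates 1 and 2.

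A set of genes was present or absent by library. Of the 1293 genes lower at 168 h than in replicate 3 and not different by the rule from replicates 1 and 2, 1282 were not called. Of these 1282 genes, 94.4% had 1 CPM or more in 120 h replicate 3, 11.2% in replicate 1, 12.0% in replicate 2, and 11.4% to 12.9% in the 168 h libraries. The rule that chose these genes fixed the contrast within 120 h and 168 h, but it did not use the other times. The filter on low counts did use them. Most of these genes were too low at 120 h and 168 h to pass it without counts at other times. That they were found at other times is thus fixed in part, though the filter did not set in which libraries. There the same genes were found in single libraries: 93.9% in 4 h replicate 2, 96.5% and 95.1% in 72 h replicates 1 and 2, and 94.9% in 96 h replicate 2. They reached 1 CPM for 11.8% in 72 h replicate 3 and for 12.9% and 14.5% in 96 h replicates 1 and 3. Shares between these extremes were found at 48 h, with 76.4% and 73.1% in replicates 2 and 3, and at 4 h, with 32.8% and 53.8% in replicates 1 and 3. Libraries of 1 time thus differed in these genes, while all libraries of 24 h and 32 h had 1 CPM in at most 18.6% of them. Since the IDs carry no names, whether these transcripts come from the embryo, the yolk or another organism in the cocoon was not tested, and neither was a difference in stage. The number of genes detected in 120 h replicate 3 includes them.

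The lists defined on 4 h to 96 h were then read against the calls of 120 h to 168 h. Of 1404 early genes tested, 307 fell (21.9%, against 6.24% of all tested genes) and 40 rose (2.85%, against 5.25%), with a median log2 fold change of -1.02 against -0.17 over all genes. Without 120 h replicate 1 the same list had 32 falls and 51 rises and a median of -0.30; in that fit 2.05% of all tested genes fell and 2.35% rose, so the list's falls were then near the share of all genes. Relative to 120 h replicates 1, 2 and 3, the median early gene was at -1.18, -0.03 and -0.19 at 168 h. The 100 most abundant genes of 4 h to 96 h had 71 falls and 1 rise, with a median of -2.02. Without replicate 1, 16 of them fell and 0 rose, with a median of -1.06. Both lists lost nearly all falls without 168 h replicate 2 or 3, with 1 and 2 early falls and 0 falls of abundant genes. In those fits 0.077% and 0.0642% of all tested genes fell. Of the abundant genes 57 are early genes too, so these counts are not separate.

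Genes switched on by 96 h showed few calls with all libraries in the fit, and a split between libraries. Of 2111 tested genes high at 96 h, 15 rose (0.711%) and 17 fell (0.805%), both below the shares over all genes. The median gene of this list was 2.11 above 120 h replicate 1 on the log2 scale at 168 h, and at -0.67 and -0.78 relative to replicates 2 and 3. Without replicate 1, 7 rose and 90 fell, where 2.35% and 2.05% of all tested genes did. The list's falls then lay above the share of all genes, and its rises below. The median fold change went from -0.30 to -0.75. Of 839 tested genes with at most 3 counts over the 4 h libraries and at least 1 CPM in each 96 h library, 28 rose (3.34%) and 5 fell (0.596%). Leaving out 120 h replicates 1, 2 and 3 in turn gave 19, 22 and 35 rises and 6, 0 and 0 falls. In those fits 2.35%, 3.27% and 4.34% of all tested genes rose and 2.05%, 3.86% and 6.36% fell. Without 168 h replicates 2 and 3 the list had 13 and 12 rises and 0 falls. There 1.58% and 1.37% of all tested genes rose and 0.077% and 0.0642% fell. The genes of this list stood 3.05 above replicate 1, and at -0.07 and -0.29 relative to replicates 2 and 3. Of 869 genes that peaked between 24 h and 72 h, 9 rose and 9 fell, 1.04% each and below the shares over all genes. Without 120 h replicates 1, 2 and 3 in turn, 1, 0 and 2 of them rose and 1, 8 and 7 fell. Of 737 genes with means within a 2-fold range from 4 h to 96 h, 28 rose (3.80%) and 74 fell (10%), with 20 and 26 without replicate 1. The rule of a change seen against every 120 h library gave another order. By it 21.1% of genes on by 96 h and 20.8% of the 24 h to 72 h peak were higher, against 13.9% of tested genes. For genes high at 96 h and those within a 2-fold range it was 3.41% and 2.71%. Lower by the rule were 2.03%, 2.3%, 0.142% and 2.85% of these lists, in the same order, against 2.33%.

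Genes silent to 96 h, under 0.5 CPM at each mean up to then, numbered 1238. Of these 683 passed the filter, which they could do only through 120 h or 168 h, so their 377 rises and 0 falls follow in part from how they were chosen. Their number was 117, 144 and 218 when 120 h replicates 1, 2 and 3 were left out in turn. Leaving out the 168 h replicates in the same order gave 209, 59 and 50 rises. Of all tested genes, 2.35%, 3.27% and 4.34% rose in the former fits and 4.19%, 1.58% and 1.37% in the latter. The list held 0.0099%, 0.0921% and 0.143% of the counts in 120 h replicates 1, 2 and 3, and 1.69%, 2.19% and 2.23% at 168 h. In replicate 1 the share was inside the range of the 96 h libraries, 0.00763% to 0.019%, and in replicates 2 and 3 it was above that range. Detection was counted apart from the test. Among all 22365 genes, 972 had at most 3 counts over the 120 h libraries and at least 1 CPM in each 168 h library, and 427 of them had 0 counts at 120 h. Against a floor of 3 counts over the 120 h group, or 0.264 CPM, their median level of 3.90 CPM was at least 14.8-fold higher, and the highest, of 302 CPM, at least 1140-fold. Such floors cover counting error only. Of the 972 genes, 632 were tested and 303 called, and 407 had at most 3 counts over all 18 libraries of 4 h to 96 h. The reverse, at most 3 counts over the 168 h libraries and at least 1 CPM in each 120 h library, held for 11 genes. Of these, 6 were tested and 3 called. The deeper 168 h libraries make this reverse rule stricter, with a floor of 0.135 CPM. With all 6 libraries thinned to 1758237 counts the numbers were 1589 and 144. Without 120 h replicates 1, 2 and 3 in turn they were 1067, 1378 and 1637 gained and 30, 98 and 95 gone.

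The choice of 120 h library changed how many genes were newly detected. Of the 12837 genes with at least 1 CPM in every 168 h library, 4070 lacked 1 CPM in 120 h replicate 1, 2135 in replicate 2 and 1837 in replicate 3. They lacked it in all 3 for 1290 genes, and in replicate 1 only for 2107. Lacking it in replicate 2 only or in replicate 3 only were 161 and 172 genes. CPM is unscaled here, and the TMM factor was 0.687 for 120 h replicate 1 and 1.16 to 1.69 for the other libraries. The same 1 CPM is therefore a higher bar in replicate 1 after scaling. That replicate also had the fewest counts, 1758237, with 72.8% in its 100 most abundant genes. The part of depth and composition in these numbers was not tested.

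Fewer counts lay in the most abundant genes at 168 h. Isoform usage was also tested, and 1 of 6396 genes was called (0.0156%). The 100 most abundant genes of each library held 72.8%, 41.2% and 40.8% of its counts at 120 h and 36.9%, 31.0% and 35.2% at 168 h. The groups did not overlap, with means of 51.6% ± 18.4 and 34.4% ± 3.06 (SD, n = 3 each; two-sided exact permutation test, p = 0.1, the smallest that 3 against 3 libraries allow). The difference was -17.2 percentage points, and -6.63 without 120 h replicate 1.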

How the data were processed

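Stranded polyA libraries of whole cocoons were sequenced, per the labels' protocols. Tools listed, per the submitters' processing notes, are RSEM, FastQC 0.11.2, Trimmomatic 0.32, limma 3.54.2, edgeR 3.40.2 and R 4.2.2. For the aligner, a name is not given in the sources used here. As deposited, the tables hold estimated counts (RSEM expected counts) per assembled transcript, and the authors' normalised signal per transcript after TMM scaling, whose underlying unit is not stated; the latter was used only in an alternative, as log2(value + 1). All columns were mapped by name.

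The 60921 rows were summed into 22365 assembler genes and rounded. filterByExpr kept 15587 genes, with at least 99.3% of the counts of each 120 h and 168 h library. edgeR 4.0.16 in R 4.3.3 (TMM, glmQLFit, glmQLFTest) was fitted to all 24 libraries, contrasting 168 h with 120 h. The common biological coefficient of variation was 0.684. SE was back-calculated from the unshrunk coefficient and F, and so adds no estimate beside the p-value. log2 CPM used a prior count of 2. CPM in lists and detection rules is unscaled; scaled CPM includes the TMM factor, 0.687 for 120 h replicate 1 and 1.16 to 1.69 for the other 5 libraries. The spread behind the p-values was estimated per gene over all 24 libraries, not over those of 120 h and 168 h alone. The median SD of log2 CPM was 0.979 at 120 h and 0.225 at 168 h, a difference that a shared spread leaves out. With those 6 libraries only, 742 of the called rises and 27 of the called falls were called again. The test was tried on simulated counts.

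The 4 IDs named (IDs carry no gene names) are the largest rise and fall among called genes seen against all 120 h libraries and called without each, and among those seen against fewer and lost without one. They needed 10 CPM in every library where higher, and over 3 counts in every other. The members, lists and rules were chosen with earlier results of these data known. Alternatives used DESeq2 1.42.0 and limma 3.58.1, other filters, fewer libraries and a block; isoform usage without 120 h libraries was added after the data were seen. No sequences were used.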

Additional observations from a re-analysis of the deposited data

How the results depend on the processing

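The rises and falls were 32 and 17 for transcripts not summed, 2115 rises with limma-voom, 1506 falls with DESeq2, 2239 and 590 with limma on the authors' normalised table, 302 falls with no filter, 544 and 609 with 1 CPM in 3 libraries, 1381 and 44 with 6 libraries only, and 159 and 118 at an adjusted p under 0.01. The single references gave 1814 and 1812, 58 and 11, and 56 and 29. The limma fit on the authors' table had a median of 0.24 over all genes, against -0.17; it made 79.1% of calls rises, limma-voom 65.9%, the fit with no filter 70.7% and that of 6 libraries 96.9%, against 45.7%. Deviations of same-numbered libraries at 120 h and 168 h correlated at 0.25, 0.11 and 0.07, so the numbers are not taken as pairs. With the replicate block 512 rose, and in 6 libraries with the block 193 fell; with the block 3 genes on by 96 h fell, 4 genes of the 24 h to 72 h peak and 0 abundant genes rose, and 161 silent genes rose. The cause of these shifts was not tested. Genes seen lower against every 120 h library numbered 552 with a prior count of 0.5 and 93 at 3-fold. Genes gained were 1589, and those gone 144, in thinned libraries, where 3 counts is a weaker bar, and 577 and 3 at 2 CPM. Simes' test of isoform usage gave 0.

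Leaving out single libraries, also of 96 h, gave 213 to 976 rises and 10 to 992 falls; 455 and 425 fell without 96 h replicates 2 and 3. It gave 2063 to 2268 genes seen higher and 293 to 768 lower, the latter figure without 168 h replicate 1. Genes gained were 1025 to 1637 and gone 18 to 98; fewer libraries ease these rules. Rises and falls in the lists were 22 to 51 and 1 to 357 (early), 12 to 35 and 0 to 6 (on by 96 h), 5 to 23 and 0 to 90 (high at 96 h), 0 to 3 and 1 to 8 (24 h to 72 h peak), 0 to 1 and 0 to 71 (abundant), 14 to 44 and 1 to 56 (steady), and 50 to 218 rises (silent). The share of the top 100 genes differed by -22.7 to -6.63 points, with exact p of at most 0.4 by permutation. Isoform usage gave 1 to 2 genes. The direction of all 4 named genes was kept in each alternative that tested them, and 22 of 84 such values missed the threshold. In 120 h replicate 1, 3 counts are 1.71 CPM, so lower levels there rest on fewer than 3 counts.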

Other observations

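The main isoform of a gene differed more often from 120 h replicate 1 than from the other libraries of that time. Of 3519 genes with several isoforms and at least 20 counts in each of the 6 libraries, 2790 had the same most abundant isoform in all 168 h libraries. That isoform was not the most abundant in 120 h replicate 1 for 536 of them, in replicate 2 for 145 and in replicate 3 for 155. For 405 genes replicate 1 alone differed. A main isoform shared by all 120 h libraries and another shared by all 168 h libraries were found for 21 genes, 0.597% of the 3519. Depth differed between these libraries, and its part in the counts was not tested.

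The test of isoform usage between 168 h and 120 h called 1 of 6396 genes (0.0156%; edgeR diffSpliceDGE, gene-level F test, adjusted p under 0.05). It is left unnamed because IDs carry no gene names. Simes' method called 0, and 707 and 393 genes had an unadjusted p under 0.05 by the F test and by Simes' method. The called gene was not called without 120 h replicate 2.

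Falling genes had more assembled isoforms than rising ones, with medians of 3 and 2. A single isoform was assembled for 21.5% of the falls, 36.4% of the rises and 36.7% of all tested genes. Falls were also more abundant, and the relation of isoform number to abundance was not tested.

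Genes detected at 120 h split by library. At least 1 CPM was reached in replicate 1 and in neither other 120 h library by 986 genes, of which 193 had 1 CPM or more in every 168 h library. In replicates 2 and 3 but not in replicate 1 it was reached by 2491 genes. CPM is unscaled here, so the bar was higher in replicate 1 after scaling, and the part of depth and composition was not tested.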
